A study of Mus musculus with 8 samples.

Results

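The δ-cells and α-cells of untreated mouse islets were compared here, as 38 δ-cells and 186 α-cells, which together make 224 of the 17426 barcodes of the series. The islets came from male C57BL6/J mice (strain C57BL/6 in the sample labels), were pooled over animals within each replicate and divided over 4 conditions, and were cultured intact for 18 h without cytokines or inhibitor before the cells were separated and captured in droplets. Each pool gave 1 untreated library, so there are 2 untreated libraries, replicates 1 and 2, with 5805 barcodes between them. The same pools were also cultured with NMMA, an inhibitor of nitric oxide synthase, without cytokines, and these 2 libraries serve below as a second reading of the same comparison in other cells. Reads were tagged at the 3′ end of the RNA with a sequence for the cell and another for the molecule (UMI), and levels rest on distinct molecules per gene.

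A cell was selected on its hormone UMIs. Barcodes with 200 to 5500 detected genes (replicate 1) or 200 to 6500 (replicate 2), at most 10% mitochondrial UMIs, at least 3000 UMIs and at least 1% of UMIs from *Ins1*, *Ins2*, *Gcg*, *Sst*, *Ppy* and *Pyy* were considered. A δ-cell has at least 50% of these hormone UMIs from *Sst*, and an α-cell at least 50% from *Gcg*. Replicate 1 holds 30 δ-cells and 91 α-cells, and replicate 2 holds 8 δ-cells and 95 α-cells. The δ-cell sums hold 259758 and 72188 non-hormone UMIs in replicates 1 and 2 and the α-cell sums 883818 and 1280082, so 1 UMI weighs more in δ-cells and low genes are measured less well there. Levels are given as CPM, the UMIs of a gene per 1000000 non-hormone UMIs of a sum, in the order replicate 1 and then replicate 2. No δ- or α-cell barcode was shared between libraries, and none was marked as a doublet. Cells of 1 library are not replicates, so they were summed per library and class. Each library was given its own level in the fit (a block). p-values therefore rest on how far differences between classes varied between libraries, over many genes and not in 1 gene alone. In comparisons of 2 libraries each gene had 1 residual degree of freedom, and its variance was moderated with that of the other genes. A small p-value is therefore no measure of that gene's own spread between libraries.

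δ-cells secrete somatostatin, a short peptide that acts on receptors of neighbouring α- and β-cells and restrains the release of glucagon and insulin. α-cells secrete glucagon, which raises blood glucose by acting on the liver. Both descend from endocrine progenitors that pass through a state of *Neurog3* expression, and their identities are held by different homeobox factors, among them *Hhex* in δ-cells and *Irx1* and *Irx2* in α-cells.

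The hormone values chose the cells and are given as a description. In δ-cells *Sst* made a median of 60.8% and 58.1% of the hormone UMIs, and in α-cells *Gcg* made 94.2% and 90.1%. The remainder in δ-cells was mostly *Pyy* (median 23.5% and 21.7%) and *Ppy* (10.6% and 11.8%), the genes of peptide YY and pancreatic polypeptide, which made 2.75% and 5.18% and 0.21% and 0.19% in α-cells. *Ins1* and *Ins2* together made 2.10% and 2.09% of hormone UMIs in δ-cells and 2.24% and 1.63% in α-cells. Just inside the limit of 50%, the lowest δ-cells lay at 50.1% and 50.2% *Sst*, and just outside it the highest other cells lay at 48.3% and 49.9%. Between 50 and 60% there were 13 and 4 δ-cells, and between 40 and 50% there were 13 and 6 cells that the limit left out. The limit therefore passes through a continuous range of cells for *Sst*, while for *Gcg* 1 and 6 α-cells lay between 50 and 60% and 9 and 2 cells between 40 and 50%.

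**Figure D1:**
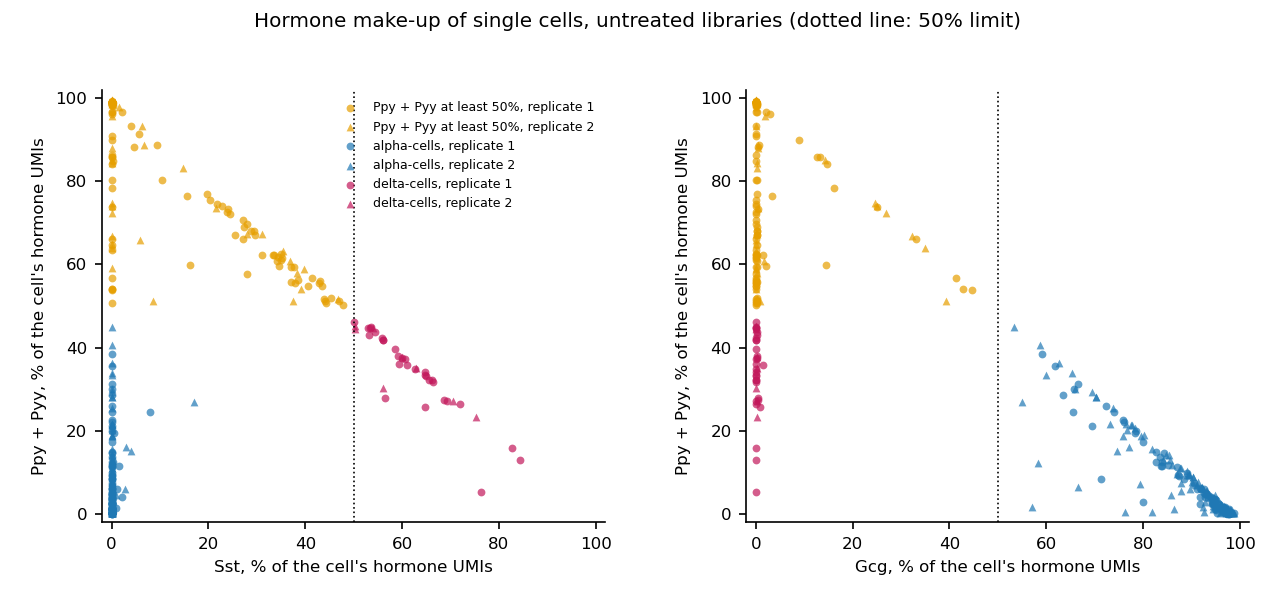
Share of *Ppy* and *Pyy* in a cell's hormone UMIs (vertical axis, percent) against the share of *Sst* (left) or *Gcg* (right), with 1 point per δ-cell (red), α-cell (blue) or cell with at least 50% *Ppy* and *Pyy* (orange) of the untreated libraries (circles replicate 1, triangles replicate 2). Drawn cells with *Sst* lie on both sides of the dotted limit of 50%, where *Ppy* and *Pyy* take most of the rest. Cells just under the limit with less than 50% *Ppy* and *Pyy* are not drawn. The medians of the α-cells lie at 94.2% and 90.1% *Gcg*.

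The sequences before the starts of *Sst*, *Gcg*, *Hhex* and *Irx2* are shown because these 4 genes carry the names of both classes. They are the 250 bases upstream of the annotated start, 5′ to 3′ on the strand of the gene (RefSeq, GRCm38.p6), with matches to 4 motifs in capitals. *Sst* lies at chr16:23890845-23891094 on the minus strand, *Gcg* at chr2:62483654-62483903 on the minus strand, *Hhex* at chr19:37434591-37434840 on the plus strand, a window that reaches past the earlier start that GENCODE gives the gene, and *Irx2* at chr13:72628570-72628819 on the plus strand. For *Gcg* the bases just after the RefSeq start were found in 0 of 3 GENCODE transcripts, and distances are counted from the RefSeq start.
Sst: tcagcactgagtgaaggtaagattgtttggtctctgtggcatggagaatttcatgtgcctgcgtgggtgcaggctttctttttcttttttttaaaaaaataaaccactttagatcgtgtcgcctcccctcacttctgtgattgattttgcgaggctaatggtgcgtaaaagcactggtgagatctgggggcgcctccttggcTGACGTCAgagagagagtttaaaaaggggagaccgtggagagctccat
Gcg: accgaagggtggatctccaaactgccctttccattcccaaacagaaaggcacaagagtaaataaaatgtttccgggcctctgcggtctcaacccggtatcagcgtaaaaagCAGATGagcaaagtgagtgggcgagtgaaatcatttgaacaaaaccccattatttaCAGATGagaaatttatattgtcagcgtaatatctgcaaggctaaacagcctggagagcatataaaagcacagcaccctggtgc
Hhex: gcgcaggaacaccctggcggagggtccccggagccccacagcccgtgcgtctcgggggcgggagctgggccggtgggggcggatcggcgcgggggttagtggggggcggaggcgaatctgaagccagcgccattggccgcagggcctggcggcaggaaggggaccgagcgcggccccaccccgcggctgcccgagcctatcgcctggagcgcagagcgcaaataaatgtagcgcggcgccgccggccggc
Irx2: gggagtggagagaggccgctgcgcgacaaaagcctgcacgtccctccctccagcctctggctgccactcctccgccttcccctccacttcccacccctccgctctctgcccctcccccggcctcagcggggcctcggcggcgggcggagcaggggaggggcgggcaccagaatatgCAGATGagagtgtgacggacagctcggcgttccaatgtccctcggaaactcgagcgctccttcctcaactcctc

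The motifs searched on both strands were TGACGTCA, the cyclic AMP response element, TAATTA, a core bound by homeobox factors, TGTTTAC, a core bound by forkhead factors, and CATCTG, an E-box. *Sst* holds TGACGTCA from 48 to 41 bases before its start, a motif present in 1.62% of 27025 promoters of this length (chromosome 18 left out). *Gcg* holds CATCTG (read as CAGATG on this strand) at 139 to 134 and at 83 to 78 bases, and *Irx2* holds it at 74 to 69 bases, against 14.5% of all promoters. None of the 4 motifs was found in the *Hhex* window. Among called genes, CATCTG stood in 23 of 242 promoters of genes higher in δ-cells (9.50%) and in 24 of 241 higher in α-cells (9.96%), against 8.60% of 6113 genes tested. For TGTTTAC the shares were 2.07%, 4.56% and 2.09%, for TAATTA 2.48%, 1.24% and 1.98%, and for TGACGTCA 3.72%, 2.90% and 3.21%. These are counts of letters in a window and were not tested.

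Outside the hormones, 631 of 7580 genes tested (8.32%) were called different between δ- and α-cells by edgeR with the library as a block, 329 of them higher in δ-cells and 302 higher in α-cells, at an adjusted p under 0.05. The median log2 difference (δ minus α) over all genes tested was −0.03. Of the called genes, 630 lay in the same direction in both libraries. The calls were made on these same libraries, which favours this outcome, so it is no separate support. In 603 the CPM of the δ-cell sums did not overlap those of the α-cell sums, which held for 45.7% of all genes tested. DESeq2 called 140 genes, all of them among the 631, with 89 higher in δ-cells and 51 in α-cells. Of 87 genes named by rule, 38 kept the call with DESeq2, 39 lost it and the others had no DESeq2 adjusted p. Not each of the genes that lost the call is marked below. With scaling by total UMIs the calls were 339 and 238, and with no low-count filter the larger number lay in α-cells, at 264 and 336. With all 8 libraries of the series in the fit, leaving out untreated replicate 1 gave 137 calls and leaving out untreated replicate 2 gave 370, and below, “without replicate 1” or “2” refers to these fits, in which the lone untreated sums are assumed to vary like the others.

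The δ-cell side of the comparison was led by 10 genes, which were *Spock3*, *Mest*, *Cela1*, *Ptprz1*, *Hhex*, *Adgrf5*, *Bmp3*, *Gap43*, *Rasgrf1* and *Neurog3*. *Hhex* (chr19:37434810-37440731 in GENCODE, the source of gene positions here) was at 346 and 596 CPM in δ-cells and at 5.66 and 5.47 CPM in α-cells, a log2 difference of 6.32 (SE 0.37, edgeR, adjusted p = 1.08e-16). Both δ-cell libraries stand far above both α-cell libraries, and β-cells were at 4.92 and 6.33 CPM. With every cell thinned to 2000 non-hormone UMIs, *Hhex* was found in 36.7% of 30 δ-cells (95% Clopper-Pearson interval 19.9 to 56.1%) and in 87.5% of 8 (47.3 to 99.7%). In α-cells it was found in 0 of 90, which allows up to 3.33% (3 counts of the total), and in 1.06% of 94 (0.0269 to 5.79%), and β-cells, which should lack it, gave 0.920% and 0.769%. Without thinning the shares were 73.3% and 100% of δ-cells and 1.10% and 4.21% of α-cells, at median depths of 10419 and 11947 UMIs per δ-cell and 11774 and 15880 per α-cell. Intervals cover counting error only.

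*Mest*, an imprinted gene active in mesoderm, was at 354 and 402 CPM in δ-cells and 2.26 and 3.12 CPM in α-cells, a log2 difference of 6.96 (SE 0.43, adjusted p = 8.73e-16). *Neurog3*, the factor of endocrine progenitors, was at 100 and 152 CPM in δ-cells, 3.39 and 1.56 CPM in α-cells and 6.82 and 4.41 CPM in β-cells. Its log2 difference between δ- and α-cells was 5.55 (SE 0.61, adjusted p = 7.76e-09). *Bmp3*, a ligand of the transforming growth factor family, was at 112 and 152 CPM against 1.13 and 3.12 CPM, and *Ptprz1*, a receptor tyrosine phosphatase, at 119 and 305 CPM against 3.39 and 0.781 CPM. In both the lowest δ-cell library exceeded the highest α-cell library, and the log2 differences were 5.74 (SE 0.59) and 6.63 (SE 0.56). *Spock3*, which encodes a secreted proteoglycan, gave 21 UMIs in δ-cells and 0 in α-cells, at least 45.6-fold higher in δ-cells when 3 UMIs are put over the α-cell sums (adjusted p = 1.77e-08), and DESeq2 did not call it (0.647).

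*Rasgrf1*, an exchange factor for Ras, had another pattern among these 10 genes. It was at 96.2 and 97.0 CPM in δ-cells and 1.13 and 2.34 CPM in α-cells, while β-cells were at 142 and 137 CPM. *Cela1*, an elastase gene that acinar cells also express, differed between the δ-cell libraries, at 959 and 277 CPM, against 9.05 and 1.56 CPM in α-cells. The log2 difference was 6.79 (SE 0.33, adjusted p = 4.37e-19), and it was not called in the fit without the library as a block (0.114). Of the 19 acinar markers, 4 were at 0 in the δ-cell sum of replicate 1 and 17 in that of replicate 2, where the summed level of 388 CPM was mostly *Cela1*. In replicate 1 the sum was 1282 CPM, of which *Cela1* made 959, and in α-cells the sums were 152 and 18.0 CPM.

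Among the genes that led the α-cell side were *Higd1a*, *Lpl*, *Irx1*, *Nts*, *Hapln1*, *Ttr*, *Oat* and *Skap1*, and all of these except *Ttr* had 0 UMIs in both δ-cell sums. *Irx1*, a homeobox factor, was at 216 and 129 CPM in α-cells, at least 18.2-fold higher than in δ-cells (edgeR, adjusted p = 1.66e-09). *Irx2* (chr13:72628820-72634198) was at 226 and 190 CPM in α-cells and at 0 and 13.9 CPM in δ-cells, where the latter is 1 UMI. The ratio of α- to δ-cells was 68.0 with a counting interval of 12.1 to 2690 (adjusted p = 2.06e-09). After thinning, *Irx2* was found in 27 of 90 α-cells (interval 20.8 to 40.6%) and in 27.7% of 94, and in 0 of 30 and 0 of 8 δ-cells, which allows up to 10.0% and 37.5%. *Hhex* and *Irx2* did not select the cells, and the CPM of each separated the classes in both libraries. In the sums of thinned cells *Hhex* was called and *Irx2* was not (adjusted p = 0.0678).

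*Ttr*, which encodes the thyroid hormone and retinol carrier transthyretin, was at 10293 and 8532 CPM in α-cells and at 23.1 and 27.7 CPM in δ-cells, a log2 difference of −8.72 (SE 0.23, adjusted p = 2.75e-28). *Higd1a*, a mitochondrial protein induced by low oxygen, was at 597 and 707 CPM in α-cells and at least 73.3-fold higher than in δ-cells, and *Lpl*, the lipoprotein lipase, was at 421 and 309 CPM and at least 39.3-fold higher. *Lpl* and *Skap1*, a signalling adaptor, are also β-cell genes here, at 251 and 213 CPM and at 93.6 and 81.7 CPM in β-cells, so that δ-cells stood below both other classes. *Nts*, the neurotensin gene, differed between the α-cell libraries, at 170 and 30.5 CPM, and was not called without replicate 1 (adjusted p = 0.514). Neither were *Oat* (0.291) and *Skap1* (0.336). DESeq2 did not call *Higd1a*, *Lpl*, *Irx1*, *Nts*, *Oat* or *Skap1*, with adjusted p between 0.526 and 1.

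**Figure D2:**
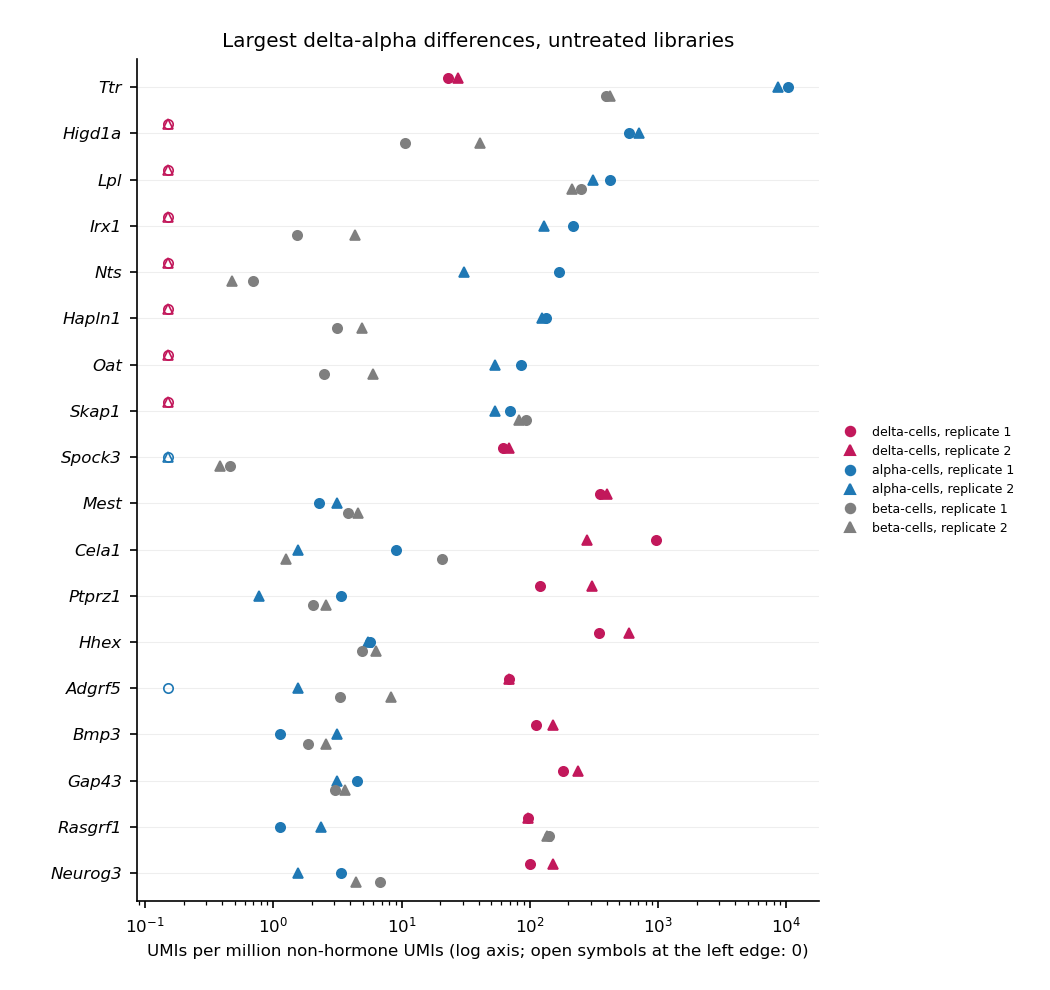
Level of 18 of the 20 genes with the largest differences, in CPM on a log axis, in δ-cells (red), α-cells (blue) and β-cells (grey) of the untreated libraries (circles replicate 1, triangles replicate 2), with a level of 0 drawn as an open symbol at the left edge. δ-cells have no UMI of 7 of the 8 α-cell genes drawn, and *Rasgrf1*, *Lpl* and *Skap1* are shared with β-cells.

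Of 10 genes listed for δ-cells, 9 were in the files and 4 were tested, and all 4 were higher in δ-cells (beside 8.32% called over all genes tested). A listed gene could pass the low-count filter through its higher class alone, and the lists were chosen with earlier results known. The counts for δ- and α-cell genes are therefore a description and no test of the classes. The 4 δ-cell genes tested are *Hhex*, *Spock3*, *Hadh* and *Rbp4*, with a median log2 difference of 4.90. *Rbp4*, the plasma carrier of retinol, was at 5998 and 5458 CPM in δ-cells and 3365 and 2400 CPM in α-cells, a log2 difference of 0.94 (SE 0.12, adjusted p = 1.52e-07), while β-cells were at 155 and 161 CPM. It was not called without replicate 2 (0.0773). *Ghsr*, the ghrelin receptor, fell under the low-count filter with 5 and 3 UMIs in δ-cells (19.2 and 41.6 CPM) and 2 and 0 UMIs in α-cells. *Lepr*, *Prg4* and *Cckbr* had 0 UMIs in both δ-cell sums, and *Crhr2* had 1 in each. Of 15 α-cell genes, 12 were tested and 10 were higher in α-cells (83.3%, beside 8.32% over all genes tested), with a median log2 difference of −6.79. *Dpp4* (−0.01, adjusted p = 0.997) and *Peg3* (0.38, adjusted p = 0.0794) were the 2 not called. The vitamin D carrier gene *Gc* was not absent from δ-cells, at 142 and 319 CPM against 688 and 449 CPM in α-cells, and the factor *Etv1* was at 304 and 305 CPM against 464 and 537 CPM.

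The numbers called in the lists that follow stand beside a share of 8.32% over all genes tested. Among islet transcription factors, 33 of 44 were tested, 11 were higher in δ-cells and 6 in α-cells, and the median log2 difference was 0.14. *Pdx1*, which β-cells need for insulin transcription and which also binds the *Sst* gene, was at 216 and 111 CPM in δ-cells and 14.7 and 10.2 CPM in α-cells, a log2 difference of 3.65 (SE 0.42, adjusted p = 1.48e-08). Its level in β-cells was 226 and 197 CPM. *Isl1*, a LIM homeobox factor of all islet endocrine cells, was at 820 and 637 CPM in δ-cells and 348 and 331 CPM in α-cells, a log2 difference of 1.07 (SE 0.18, adjusted p = 3.73e-05). *Pbx3*, *Meis2*, *Insm1*, *St18*, *Hopx* and *Tshz1* were higher in δ-cells by 0.87 to 2.12 on the log2 scale, and *Mlxipl*, a carbohydrate-responsive factor, by 3.05 (SE 0.52, adjusted p = 3.63e-05). *Irx1*, *Irx2* and *Etv1* were among those on the α-cell side. *Pax6* (0.46, adjusted p = 0.203), *Nkx2-2* (−1.11, 0.0887) and *Nkx6-1* (−2.32, 0.103) were not called. *Nkx6-1* separates δ- from β-cells, at 7.70 and 0 CPM against 366 and 280 CPM (log2 −6.09, adjusted p = 5.94e-27). Without replicate 1 *Isl1* (0.305) and *Mlxipl* (0.62) were not called.

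**Figure D3:**
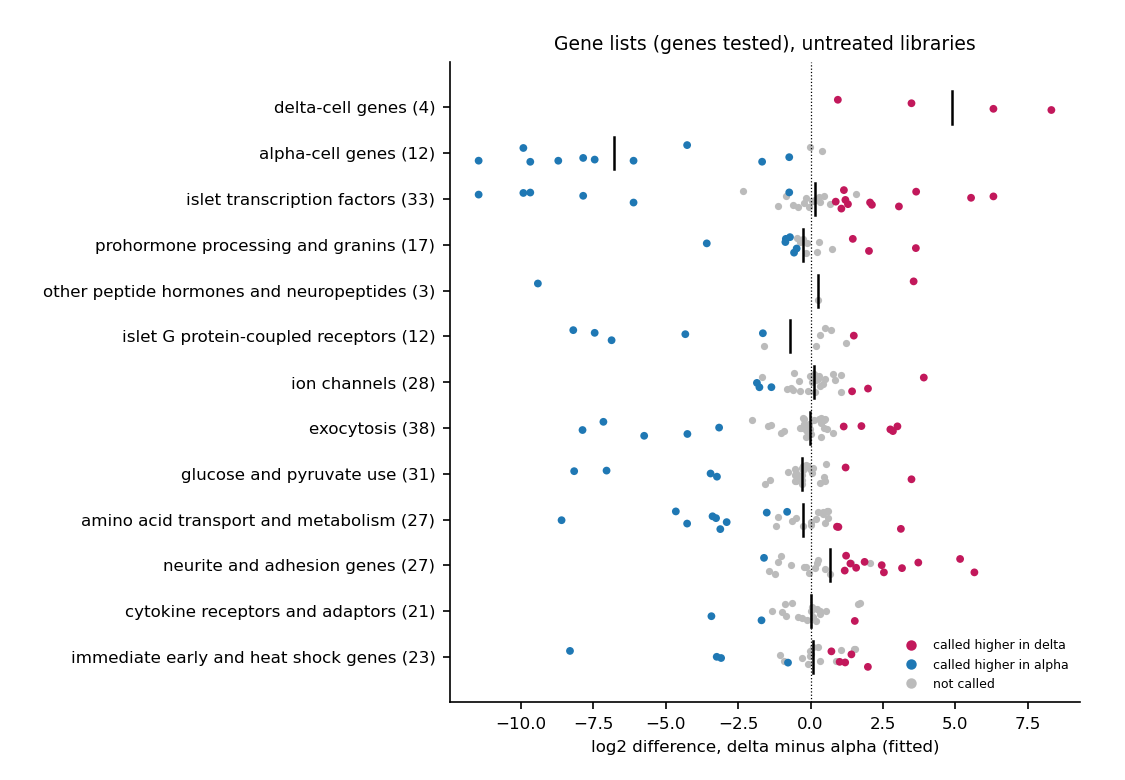
Fitted log2 difference (δ minus α) of each tested gene of 13 lists, with the number tested in parentheses, called genes in red or blue, other genes in grey and the list's median as a black line. The lists of δ- and α-cell genes lie on opposite sides, and their members could pass the low-count filter through the higher class alone. The medians of the other lists lie between −0.71 and 0.67. Values of genes with 0 UMIs in a class depend on the prior count of the fit and are no bound.

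Genes that cut and package prohormones differed in both directions. Of 19 listed, 17 were tested, 3 were higher in δ-cells and 6 in α-cells, with a median of −0.27. *Chgb*, chromogranin B of the secretory granule, was at 4631 and 4294 CPM in δ-cells and 1189 and 931 CPM in α-cells, a log2 difference of 2.02 (SE 0.13, adjusted p = 9.11e-16). *Scg2*, secretogranin II, was at 4212 and 3532 CPM against 1401 and 1307 CPM, a difference of 1.46 (SE 0.12, adjusted p = 8.34e-12). *Pcsk1*, the prohormone convertase PC1/3, was at 77.0 and 111 CPM against 6.79 and 7.03 CPM, a difference of 3.64 (SE 0.55, adjusted p = 5.60e-06), and at 280 and 254 CPM in β-cells. In each of these 3 genes both δ-cell libraries exceed both α-cell libraries by over the spread within a class.

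*Vgf*, a granule protein that is itself cut into peptides, was at 313 and 309 CPM in α-cells and 30.8 and 13.9 CPM in δ-cells, a log2 difference of −3.59 (SE 0.37, adjusted p = 1.40e-09). The carboxypeptidase *Cpe* was lower in δ-cells by less, at 1182 and 1191 CPM against 2221 and 1856 CPM (log2 −0.85, SE 0.14, adjusted p = 1.67e-05). *Scgn*, a calcium-binding protein, *Chga* (−0.71), *Pcsk1n*, the inhibitor of PC1/3 (−0.57), and *Pcsk2*, the convertase PC2 that frees glucagon (−0.48), were called lower in δ-cells too. Without replicate 1, *Cpe* (0.375), *Chga* (0.14), *Pcsk1n* (0.731) and *Pcsk2* (0.114) were not called, and without replicate 2 *Chga* (0.283), *Pcsk1n* (0.151) and *Pcsk2* (0.92) were not. *Pcsk2* was not called in 8 of 13 alternatives, among them DESeq2 (0.464) and scaling by total UMIs (0.0645), and its log2 difference ran from −0.88 without replicate 1 to −0.18 without replicate 2. *Pcsk1n* was not called in 6 of 13.

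Among 29 other peptide genes only 3 passed the low-count filter, of which *Iapp* was higher in δ-cells and *Nts* in α-cells. *Iapp*, islet amyloid polypeptide, which β-cells secrete with insulin, was at 40099 and 44315 CPM in δ-cells and 3704 and 3172 CPM in α-cells, a log2 difference of 3.56 (SE 0.12, adjusted p = 5.11e-25). β-cells were at 92803 and 65069 CPM. The insulin transcript *Ins2* did not follow it, at 4350 and 4188 CPM of the non-hormone total in δ-cells and 5657 and 6990 in α-cells, against 497503 and 457624 in β-cells. Of the other β-cell markers, *Slc30a8* was at 15.4 and 0 CPM in δ-cells and 675 and 467 CPM in α-cells, *G6pc2* at 7.70 and 0 CPM and *Slc2a2* at 7.70 and 0 CPM in δ-cells, and *Ucn3* had no UMI in δ-cells. With all 8 libraries in the fit *Iapp* was at the same difference but not called (0.0605), and without replicate 1 or 2 the adjusted p was 0.436 and 0.372.

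Receptors through which islet cells read hormones, lipids and transmitters were mostly rare, and 12 of 54 were tested, of which 1 was higher in δ-cells and 5 in α-cells, with a median of −0.71. *Ffar4*, a receptor of long-chain fatty acids, was higher in δ-cells, at 158 and 125 CPM against 49.8 and 49.2 CPM (log2 1.495, SE 0.35, adjusted p = 0.00297), and DESeq2 did not call it (0.38). The related *Ffar1* had 0 UMIs in δ-cells, 20.4 and 35.2 CPM in α-cells and 177 and 198 CPM in β-cells. Higher in α-cells were also *Avpr1b*, the vasopressin receptor 1B (57.7 and 65.6 CPM against 0, at least 6.90-fold), *Gpr119* (63.4 and 56.2 CPM against 3.85 and 0), *Oxtr*, the oxytocin receptor (123 and 122 CPM against 50.05 and 13.9), and *Sstr2*. Of these, DESeq2 did not call *Avpr1b* (0.0574), *Gpr119* (0.181) or *Oxtr* (0.378). *Sstr2* encodes a receptor of somatostatin and was at 39.6 and 21.1 CPM in α-cells and 0 in δ-cells, at least 3.17-fold higher (adjusted p = 0.00313). Another somatostatin receptor, *Sstr3*, was at 38.5 and 41.6 CPM in δ-cells and 36.2 and 25.0 CPM in α-cells and was not called (0.20, SE 0.51, adjusted p = 0.915). Without replicate 1 *Ffar4* (0.563), *Avpr1b* (0.201), *Gpr119* (0.338), *Sstr2* (0.726), *Oxtr* (0.103) and *Ffar1* (0.594) were not called, nor were *Oxtr* (0.088) and *Ffar1* (0.209) without replicate 2.

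Of 57 genes of exocytosis, 38 were tested, 5 were higher in δ-cells and 5 in α-cells, and the median was −0.03. *Stxbp5l*, a tomosyn that binds syntaxin, was at 254 and 249 CPM in δ-cells and 36.2 and 22.7 CPM in α-cells, a log2 difference of 3.002 (SE 0.34, adjusted p = 1.01e-08). The vesicle GTPase *Rab3b* was at 104 and 97.0 CPM against 17.0 and 10.2 CPM, and *Syt1*, a calcium sensor of vesicle fusion, at 73.1 and 69.3 CPM against 7.92 and 11.7 CPM. The active-zone protein gene *Pclo* and *Syt5* were higher by 1.76 and 1.15 on the log2 scale. DESeq2 did not call *Syt1* (0.0998), *Pclo* (0.412) or *Syt5* (0.509). *Slc30a8*, the zinc transporter of insulin and glucagon granules, was lower in δ-cells with a log2 difference of −5.75 (SE 0.40, adjusted p = 1.93e-14). *Cadps*, which primes dense-core vesicles, was at 7.70 and 0 CPM in δ-cells against 113 and 115 CPM in α-cells, a ratio of 18.9 with a counting interval of 5.19 to 157, and it was at 143 and 135 CPM in β-cells. *Sytl2*, *Rab3c* and *Rab27b*, which tether granules, completed the α-cell side. The core fusion gene *Snap25* was at 162 and 139 CPM against 180 and 180 CPM and was not called (−0.27, adjusted p = 0.697). Without replicate 1 *Syt1* (0.404), *Pclo* (0.62), *Syt5* (0.313), *Sytl2* (0.493) and *Rab3c* (0.416) were not called, and without replicate 2 *Syt5* (0.122) and *Rab27b* (0.0931) were not.

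Ion channels differed in both directions. Of 66 listed, 28 were tested, 3 were higher in δ-cells and 3 in α-cells (21.4%, beside 8.32% over all genes tested), with a median of 0.13. *Kcnmb2*, a subunit of the large-conductance potassium channel, was at 216 and 166 CPM in δ-cells and 53.2 and 39.1 CPM in α-cells, a log2 difference of 1.99 (SE 0.32, adjusted p = 2.15e-05). *Cacna1h*, a T-type calcium channel, was at 50.05 and 55.4 CPM against 4.53 and 1.56 CPM, a difference of 3.91 (SE 0.66, adjusted p = 3.57e-05). The glutamate receptor subunits *Gria2* and *Gria3* were higher in α-cells, at 265 and 255 CPM against 127 and 55.4 CPM and at 90.5 and 86.7 CPM against 26.9 and 27.7 CPM. *Trpc1*, a cation channel, was called higher in δ-cells and *Kcnk3*, a background potassium channel, higher in α-cells. *Kcnj11* (0.50, adjusted p = 0.668) and *Abcc8* (0.33, 0.375), the subunits of the ATP-sensitive potassium channel that both cell types use, were not called. Without replicate 1 *Kcnmb2* (0.0879), *Cacna1h* (0.0908), *Trpc1* (0.931), *Kcnk3* (0.7) and *Gria3* (0.611) were not called, and without replicate 2 *Gria2* (0.0573) was not.

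Amino acid genes gave 12 calls among 27 tested of 58 listed, 9 of them higher in α-cells, which respond to amino acids with glucagon release, and the median was −0.27. *Slc7a2*, a carrier of arginine and lysine, was at 218 and 258 CPM in α-cells and 11.5 and 13.9 CPM in δ-cells, a log2 difference of −4.26 (SE 0.45, adjusted p = 3.16e-09). *Slc38a4* was at 220 and 232 CPM in α-cells and 11.5 and 0 CPM in δ-cells, a ratio of 25.1 with a counting interval of 8.54 to 122. *Slc7a8*, *Slc38a5*, *Slc3a2*, *Ddc*, *Maob* and *Oat* were higher in α-cells as well. *Arg1*, arginase, which breaks arginine into ornithine and urea, went the other way, at 1070 and 762 CPM in δ-cells and 106 and 96.9 CPM in α-cells, a difference of 3.12 (SE 0.20, adjusted p = 2.14e-15), with β-cells at 26.5 and 17.6 CPM. *Oat*, which turns ornithine onward, was at 86.0 and 53.1 CPM in α-cells and 0 in δ-cells. The taurine carrier *Slc6a6* (0.91) and *Slc7a14* (0.96) were higher in δ-cells by less, and neither was called without replicate 1 (0.501 and 0.14) or without replicate 2 (0.121 and 0.245). *Slc38a5* (0.19) and *Oat* (0.291) were not called without replicate 1.

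In glucose and pyruvate use 31 of 52 genes were tested, 2 were higher in δ-cells and 4 in α-cells, with a median of −0.29. *Hadh*, an enzyme of fatty acid oxidation that also restrains glutamate dehydrogenase, was at 320 and 346 CPM in δ-cells, 31.7 and 24.2 CPM in α-cells and 533 and 445 CPM in β-cells. The log2 difference of δ- and α-cells was 3.49 (SE 0.31, adjusted p = 2.01e-11). *Ldha*, lactate dehydrogenase, was at 169 and 139 CPM against 67.9 and 61.7 CPM (1.21, SE 0.32, adjusted p = 0.00925). *Gpd2* of the glycerol phosphate shuttle was at 140 and 96.1 CPM in α-cells and 11.5 and 13.9 CPM in δ-cells (−3.45, SE 0.53, adjusted p = 8.26e-06). *Fbp1*, *Pdk4* and *Hk1* were also higher in α-cells, the last 2 with no UMI in δ-cells. Without replicate 1 *Ldha* (0.593), *Gpd2* (0.267), *Fbp1* (0.118), *Pdk4* (0.154) and *Hk1* (0.649) were not called, and *Hk1* was not without replicate 2 (0.0531).

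**Figure D4:**
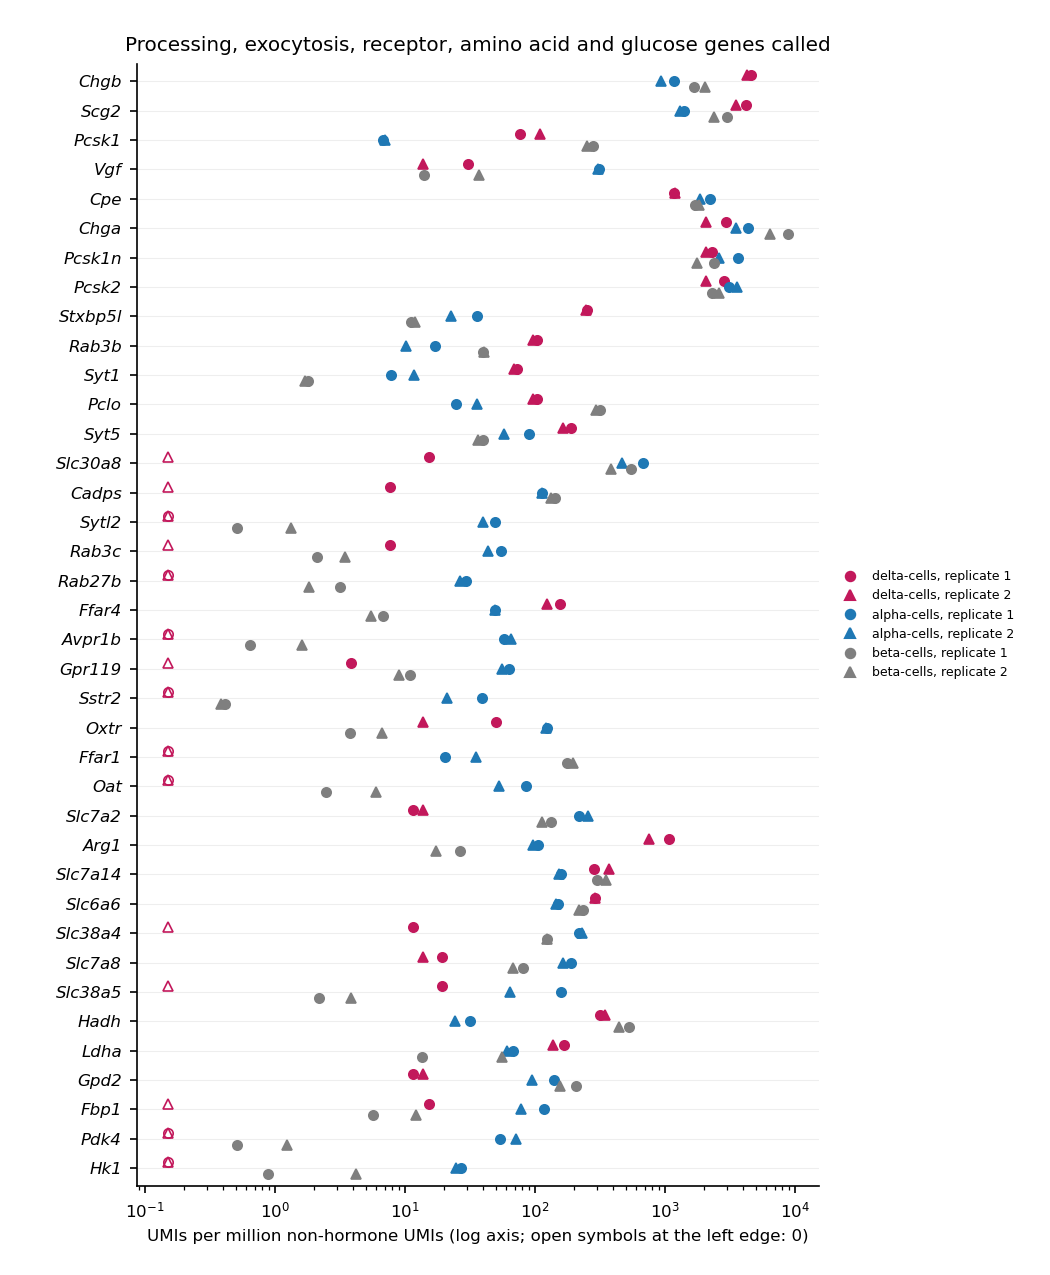
Level of the reported genes of prohormone processing, exocytosis, receptors, amino acids and glucose use, in CPM on a log axis, in δ-cells (red), α-cells (blue) and β-cells (grey) of the untreated libraries (circles replicate 1, triangles replicate 2), with 0 as an open symbol at the left edge. *Slc30a8*, *Cadps*, *Slc7a2*, *Slc38a4*, *Ffar1* and *Gpd2* are low or absent in δ-cells and present in both α- and β-cells.

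Of 87 genes of neurites and cell adhesion, 27 were tested, 11 were higher in δ-cells and 1 in α-cells (44.4%, beside 8.32% over all genes tested), and the median log2 difference was 0.67. *Gap43*, a growth cone protein, was at 181 and 235 CPM in δ-cells and 4.53 and 3.12 CPM in α-cells, a difference of 5.66 (SE 0.48, adjusted p = 6.35e-12). *Dscam*, a homophilic adhesion molecule of neurons, was at 77.0 and 69.3 CPM against 1.13 and 2.34 CPM, and *Pcdh15*, a protocadherin, at 146 and 97.0 CPM against 9.05 and 8.59 CPM. For *Cadm1* the levels were 320 and 263 CPM against 98.4 and 92.2 CPM, a difference of 1.58 (SE 0.25, adjusted p = 1.01e-05). The others were *Cdh1*, *Cdh2*, *Efna5*, *Ncam2*, *Stmn3*, *Tenm4* and *Unc5c*, at 1.18 to 3.16 on the log2 scale. *Robo2*, a receptor of Slit, was the gene higher in α-cells, at 110 and 106 CPM against 50.05 and 0 CPM (−1.61, SE 0.44, adjusted p = 0.0134), and was not called without replicate 2 (0.197). *Pcdh15* (0.0697), *Dscam* (0.159) and *Cadm1* (0.114) were not called without replicate 1.

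Because other islets of the same pools were exposed to IL-1β and IFN-γ in the series, the basal level of cytokine receptors is given. Of 45 genes 21 were tested, 1 was higher in δ-cells and 2 in α-cells, with a median of 0.00. The IFN-γ receptor genes *Ifngr1* and *Ifngr2* fell under the low-count filter, as did *Il1rap* and *Myd88*. *Ifngr1* was at 53.9 and 0 CPM in δ-cells and 12.4 and 15.6 CPM in α-cells. For *Ifngr2* the levels were 23.1 and 13.9 CPM against 10.2 and 14.1 CPM. *Il1r1*, the signalling receptor of IL-1β, was at 84.7 and 125 CPM in δ-cells, 308 and 277 CPM in α-cells and 395 and 332 CPM in β-cells, a log2 difference of −1.69 between δ- and α-cells (SE 0.28, adjusted p = 2.73e-05). *Ghr*, the growth hormone receptor, was at 196 and 263 CPM against 73.5 and 73.4 CPM (1.53, SE 0.28, adjusted p = 0.000156). *Lifr* had 1 UMI in δ-cells against 33.9 and 34.4 CPM in α-cells. *Jak1*, a kinase of interferon receptors, was not called (0.19, adjusted p = 0.864). Without replicate 1 *Il1r1* (0.352) and *Lifr* (0.845) were not called, and DESeq2 called neither *Il1r1* (0.0574) nor *Ghr* (0.0738).

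The immediate early genes differed most in replicate 1. Of 29 immediate early and heat shock genes, 23 were tested, 5 were higher in δ-cells and 4 in α-cells, with a median of 0.07. *Fos*, *Jun*, *Junb*, *Ier2* and *Btg2*, which cells switch on within minutes of a stimulus or of handling, were called higher in δ-cells, by 0.72 to 1.98 on the log2 scale. *Jun* was at 847 and 416 CPM in δ-cells and 382 and 391 CPM in α-cells, and *Ier2* at 712 and 152 CPM against 128 and 87.5 CPM, so that the classes lay closer in replicate 2. *Junb* overlapped between the classes, at 427 and 139 CPM against 143 and 111 CPM. Without replicate 1 the differences were 0.01 for *Jun* (adjusted p = 1), 0.72 for *Ier2* (0.755), 0.25 for *Junb* (0.949), 0.59 for *Fos* (0.86) and 0.47 for *Btg2* (0.795). In the NMMA libraries all 5 were called higher in δ-cells, by 0.73 to 1.83. On the α-cell side, *Klf4* had 0 UMIs in δ-cells against 70.2 and 43.7 CPM (not called without replicate 1, 0.405). *Hspa1a*, a heat shock gene that shares reads with its near copy *Hspa1b*, was at 15.4 and 0 CPM in δ-cells and 84.9 and 146 CPM in α-cells. Neither copy was called with all 8 libraries in the fit (0.627 and 0.724) or with DESeq2 (0.0859 and 0.314). The same held without replicate 1 or 2. *Hspd1*, a mitochondrial chaperone, was also called higher in α-cells, but not in 8 of 13 alternatives. Among these were DESeq2, scaling by total UMIs (0.0685), thinning (0.546) and the fits without replicate 1 or 2.

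Markers of other cell types are given as summed levels. Endothelial markers summed to 34.6 and 41.6 CPM in δ-cells and 11.3 and 3.91 CPM in α-cells, with 8 and 7 of 10 genes at 0 in δ-cells. Macrophage markers summed to 166 and 263 CPM against 67.9 and 71.1 CPM, with 6 and 8 of 11 genes at 0 in δ-cells and 5 and 4 in α-cells. *C1qa* was the highest gene in every sum, at 112 and 180 CPM in δ-cells and 58.8 and 60.2 CPM in α-cells. It was the only macrophage marker tested and was called higher in δ-cells. Mesenchymal markers were at 7.70 and 0 CPM in δ-cells and at 472 and 7.03 CPM in α-cells, where the difference between α-cell libraries is 417 against 9 UMIs. Schwann markers summed to 42.3 and 69.3 CPM against 58.8 and 45.3 CPM, and *Gfra3* was called higher in α-cells. Ductal markers, led by *Epcam* in δ-cells and *Spp1* in α-cells, summed to 2371 and 2881 CPM against 4312 and 2901 CPM. The PP-cell markers *Tspan8*, *Fxyd3* and *Meis2* were called higher in δ-cells, with sums of 1405 and 1648 CPM against 425 and 427 CPM. Their part in the differences above was not tested.

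Since *Pyy* takes hormone UMIs from *Sst* in δ-cells, the selection was repeated after seeing the data with *Pyy* left out of the hormone total. It then gave 64 and 21 δ-cells and 98 and 98 α-cells, and 1053 genes of 8654 tested were called, among them 594 of the 631. The added δ-cells, 34 and 13, were compared with the 38 δ-cells, and 3 of 3839 genes (0.0781%) were called, with 139 at an unadjusted p under 0.05. *Ttr* was at 23.1 and 27.7 CPM in the 38 δ-cells and at 54.0 and 1823 CPM in the added cells, where replicate 2 makes the difference. *Timp1*, an inhibitor of metalloproteinases, was at 0 and 13.9 CPM against 61.2 and 126 CPM, and *Cela1* was at 959 and 277 CPM against 299 and 341 CPM. With the added cells *Ttr* was lower in δ- than in α-cells by 4.74 on the log2 scale and not called (0.578), so its value depends on which *Sst* cells are counted.

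In the NMMA libraries the same rule gave 14 and 8 δ-cells and 54 and 95 α-cells, and 589 of 6464 genes tested (9.11%) were called, 306 higher in δ-cells and 283 in α-cells. Of the 631 genes called in untreated cells, 538 were tested with NMMA and 533 had the same sign. The genes called in both with the same sign number 379, which is 60.1% of the untreated calls and 64.3% of the NMMA calls, and none was called in both with opposite signs. Of the 20 genes with the largest differences, 19 were tested and all 19 were called in the same direction. *Hhex* differed by 4.36 (SE 0.31, adjusted p = 3.06e-40) and *Ttr* by −7.63 (SE 0.29, adjusted p = 3.26e-139) with NMMA. These libraries come from the same 2 pools of islets, so they repeat the capture and the cells but not the animals.

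**Figure D5:**
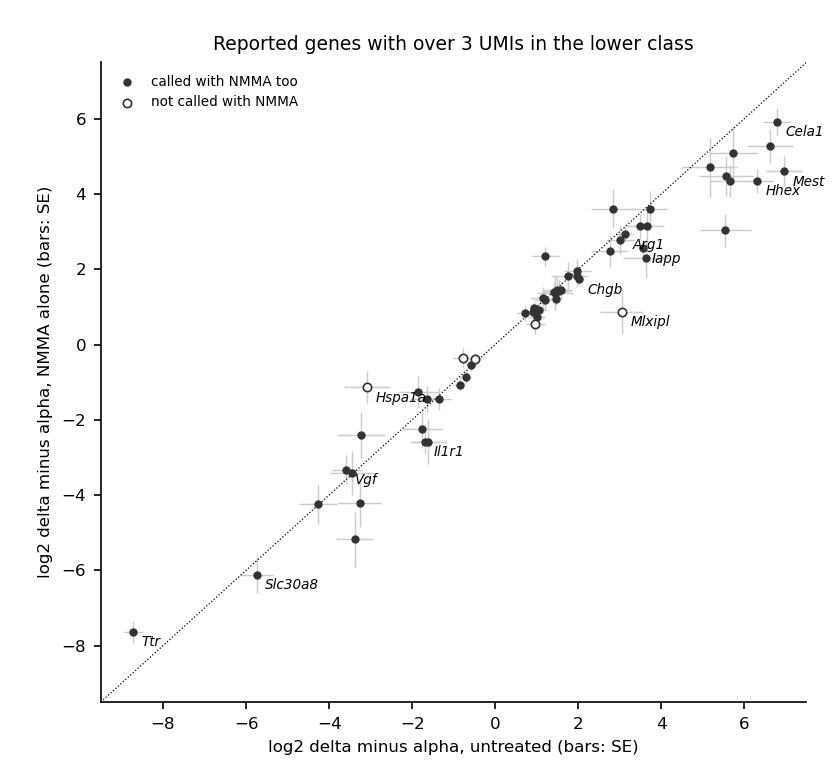
Log2 difference (δ minus α) in the NMMA libraries against that in the untreated libraries for 58 reported genes with over 3 UMIs in the lower class, with SE bars and the line of equal values dotted. All points lie in the quadrants of equal sign, and 53 of the 58 (filled) were called with NMMA too.

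The difference of the differences was tested directly, and 3 of 7987 genes (0.0376%) were called, with 317 at an unadjusted p under 0.05. *Iapp* differed less between the classes with NMMA, by −1.01 (SE 0.19, adjusted p = 0.000444), as α-cells were at 6807 and 5920 CPM with NMMA against 3704 and 3172 CPM untreated, and δ-cells at 45579 and 34362 CPM against 40099 and 44315 CPM. *Mt1*, a metallothionein, and *B830017H08Rik* were the other genes called, at −1.85 (SE 0.29) and −3.43 (SE 0.71). *Hhex* over all 8 libraries was in δ-cells of replicates 1 and 2 at 346 and 596 CPM untreated, 318 and 517 CPM with NMMA, 61.3 and 233 CPM with cytokines and 164 and 123 CPM with both, and between 0 and 24.4 CPM in α-cells. *Irx2* was in α-cells at 226 and 190 CPM untreated, 249 and 151 CPM with NMMA, 45.1 and 68.8 CPM with cytokines and 166 and 145 CPM with both, and δ-cells never exceeded 18.8 CPM. The δ-cells of the cytokine libraries number 4 and 3, and no test was made on them.

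Against β-cells (1744 and 653 cells), 965 of 11668 genes (8.27%) were called, 420 higher and 545 lower in δ-cells. This split depends on scaling: by total UMIs it was 591 and 352, and the median over all genes moved from −0.13 to 0.11. Both comparisons use the same δ-cell sums, so values are given side by side. *Hhex* stood above α- and β-cells by 6.32 and 6.07, *Mest* by 6.96 and 6.26, *Arg1* by 3.12 and 5.13, *Stxbp5l* by 3.002 and 4.22, *Syt1* by 2.85 and 5.08 and *Cadm1* by 1.58 and 3.37 on the log2 scale. *Pdx1* (3.65 and −0.51), *Rasgrf1* (5.56 and −0.78) and *Scg2* (1.46 and 0.28) separated δ- from α-cells and were not called against β-cells. *Iapp* (3.56 and −1.13), *Hadh* (3.49 and −0.84), *Pcsk1* (3.64 and −1.89) and *Pclo* (1.76 and −1.86) lay between the classes, called higher than in α-cells and lower than in β-cells. The zinc transporter *Slc30a8* (−5.75 and −5.68), *Slc7a2* (−4.26 and −3.65), *Gpd2* (−3.45 and −4.26), *Cadps* (−4.25 and −4.79) and *Il1r1* (−1.69 and −2.21) were lower in δ-cells than in either.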

How the data were processed

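Islet cells of untreated and NMMA-treated cultures were profiled by droplet RNA sequencing, and the authors deposited UMI counts per gene and barcode as matrices (Cell Ranger, headers 3.0.0 for replicate 1 and 6.0.0 for replicate 2, mm10 per the labels). The labels and the methods name different versions of the capture kit. Library totals were 50731370 and 32406984 UMIs in the untreated libraries and between 26549922 and 50731370 in all 8. Genes were restricted to 30406 IDs shared by both replicates. Cells were selected and summed in Python 3.11.15 (numpy 2.4.6, scipy 1.17.1, pandas 2.3.3), and doublets scored with Scrublet in scanpy 1.11.5. The automatic threshold proved numerically unstable, so, after seeing this, the highest scores were marked in a share that grows with the number of barcodes (37 and 26 untreated barcodes, 1.72% and 1.45%, no δ- or α-cell).

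Sums without the 6 hormone genes went into edgeR 4.0.16 under R 4.3.3 (TMM, filterByExpr with a count minimum of 10, robust quasi-likelihood F test, Benjamini-Hochberg threshold 0.05), with the library as a block since both classes come from the same library. Deviations of the classes within a library correlated at r = 0.493 over 2141 genes. DESeq2 1.42.0 and the other alternatives are given in the closing section. The test was checked on simulated data. Classes with 0 UMIs were set to 3 UMIs over the group for bounds. All p-values are adjusted over all genes tested, from edgeR unless another tool is named.

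Named were the marker genes, the 10 largest called differences in each direction among genes with at least 50 CPM in the higher class and 1 direction in both libraries, and up to 5 called genes of each list in each direction by adjusted p. List members that were not called were named for their known role. Other genes named were chosen after their values were seen, and some genes that meet the rule are not reported here. The cell classes and gene lists were chosen with earlier results of these data known.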

Additional observations from a re-analysis of the deposited data

Results flagged for a closer look

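For 3 genes the δ- to α-cell difference itself differed between untreated and NMMA libraries. For *Iapp* it was smaller with NMMA than without it by −1.01 on the log2 scale (SE 0.19, edgeR interaction term over both conditions, adjusted p = 0.000444). α-cells were at 3704 and 3172 CPM untreated and at 6807 and 5920 CPM with NMMA, and δ-cells at 40099 and 44315 CPM and at 45579 and 34362 CPM. The classes did not overlap in either condition.

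*Mt1*, a metallothionein that binds zinc and copper, lay lower with NMMA in δ-cells and higher in α-cells. δ-cells were at 458 and 900 CPM untreated and 241 and 435 CPM with NMMA, and α-cells at 408 and 869 CPM untreated and 639 and 1710 CPM with NMMA (edgeR interaction −1.85, SE 0.29, adjusted p = 9.31e-07).

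*B830017H08Rik* was in δ-cells at 169 and 69.3 CPM untreated and 44.5 and 23.5 CPM with NMMA, and in α-cells at 11.3 and 7.81 CPM untreated and 45.6 and 10.5 CPM with NMMA (edgeR interaction −3.43, SE 0.71, adjusted p = 0.00333). The p-values of these interaction terms rest on a variance shared over genes and do not measure each gene's own spread between libraries. The causes of these differences were not tested.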

How the results depend on the processing

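The number of genes called between untreated δ- and α-cells (631) was 140 with DESeq2, 48 with every cell thinned to 2000 non-hormone UMIs, 1053 with *Pyy* left out of the hormone total (chosen after seeing the data) and 965 with the β-cell sums in the fit. Leaving out 1 untreated library gave 137 to 370. With NMMA (589) it was 140 with DESeq2, 93 after thinning and 377 without the replicate block. Against β-cells (965) it was 322 with DESeq2, 125 after thinning and 2260 with *Pyy* left out. Without the replicate block, that is without pairing the classes by library, 470 genes were called between untreated δ- and α-cells, 464 of them among the 631, and 769 against β-cells. Thinning left 2386 genes to test between δ- and α-cells. The causes of the other changes were not tested. Selecting cells at 80% of hormone UMIs could not be fitted, as it left 2 and 0 untreated δ-cells.

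The alternatives were followed for 87 genes named by rule, and none of these reversed under those run. Removing scored doublets left the untreated δ- and α-cell sums unchanged. Its 87 values, counted next among those that kept the call, were therefore fixed in advance. Of 1078 values with a test, 915 kept direction and call and 163 lost the call. Of 174 values from 1 library alone, which have no test, 98 moved by more than the standard error of the fit. DESeq2 gave an adjusted p for only part of the 87 genes, and 38 kept the call. Calls were lost for 39 genes with DESeq2, 33 of the 50 tested after thinning, 49 without replicate 1, 17 without replicate 2 and 9 without the block. *Chga* (0.095), *Pcsk1n* (0.223), *Pcsk2* (0.296), *Slc38a5* (0.146), *Ier2* (0.362), *Jun* (0.206), *Hspd1* (0.119), *Nts* (0.77) and *Cela1* (0.114) were those lost without the block. Those lost after thinning included *Irx2* (0.0678), *Irx1* (0.063), *Hapln1* (0.0986), *Rab3b* (0.316), *Slc7a2* (0.0678), *Slc38a4* (0.0561), *Slc7a8* (0.118) and *Vgf* (0.0553). The 18 genes called under each alternative that tested them included *Hhex*, *Mest*, *Chgb*, *Slc30a8* and *Arg1*, tested in 13, and *Neurog3*, *Pdx1* and *Pcsk1*, which were tested in 12 and not after thinning. The 8 δ-cells of replicate 2, with 72188 UMIs, limit what can be seen of genes low in δ-cells.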

Other observations

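Ribosomal protein genes, a group chosen after their values were seen, lay below in δ-cells. Of 85 tested, 44 were called higher in α-cells and 0 higher in δ-cells by edgeR at an adjusted p under 0.05, beside 302 and 329 of all 7580 genes tested (8.32% called in all), and the median log2 difference (δ minus α) was −0.41 beside −0.03 over all genes tested. The number higher in α-cells was 23 with scaling by total UMIs, 3 with DESeq2, 1 without the replicate block, 0 without replicate 1 and 4 without replicate 2. The median lay between −0.53 and −0.34 under all 13 alternatives run, and these were added after seeing the data. The median over all genes moved as well. It was −0.26 with no low-count filter, beside −0.53 for the ribosomal genes, and −0.17 without replicate 1, beside −0.34. Among the 13, removing scored doublets left the sums unchanged.

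*Glp1r*, the receptor of glucagon-like peptide 1, differed between the replicates in every class. In replicate 1 it had 0 UMIs in δ- and α-cells and 7.28 CPM in β-cells, and in replicate 2 it was at 111 CPM in δ-cells, 7.03 CPM in α-cells and 663 CPM in β-cells. It did not pass the low-count filter and was not tested. The replicates were also counted with different Cell Ranger versions (3.0.0 and 6.0.0) and gene lists (31053 and 32285 genes). The design cannot tell these apart from other differences between the replicates.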
